A study of Mus musculus with 6 samples.

Results

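A set of 10 genes that mark the mural cells of brain vessels was followed in mouse auditory cortex after WNT3 overexpression. Their rows were matched by gene name, but the set was chosen with earlier results of these data known. All 10 were found among the 50559 genes listed: Pdgfrb, Notch3, Rgs5, Abcc9, Acta2, Tagln, Myh11, Des, Vtn and Anpep. The study sequenced total RNA from C57 mice in 6 libraries, 3 labelled WNT3 overexpression and 3 labelled WNT3 control, to find molecular changes that follow excess WNT3, one of the secreted Wnt ligands. The labels do not state how the gene was overexpressed, in which cells, what the control mice received or the age of the mice. Nor do they tie libraries to animals, and the p-values therefore speak only of the variation among these 6 libraries, which may be technical. The tissue label reads auditory cortex, but the extraction protocol speaks of striatum. The 7 cortical excitatory neuron markers used (Slc17a7, Neurod2 and others) summed to between 1113 and 1222 CPM in overexpression and between 1104 and 1290 CPM in control. The 8 striatal projection neuron markers summed to between 268 and 326 CPM in overexpression and between 279.6 and 441 CPM in control, and of these, Penk, the enkephalin precursor, was at 12.6, 11.1 and 29.1 CPM in overexpression and 26.4, 53.0 and 70.1 CPM in control.

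Mural cells wrap the endothelial tube. Pericytes sit on capillaries and take part in the blood-brain barrier, and vascular smooth muscle cells ring arteries and arterioles and set their width by contraction. Endothelial PDGF-B holds mural cells to the vessel through the receptor encoded by Pdgfrb, and Notch ligands on the endothelium keep arterial smooth muscle mature through Notch3. Contractile genes such as Acta2, Tagln and Myh11 are switched on by serum response factor (SRF), which binds a DNA motif called the CArG box together with its cofactor myocardin, encoded by Myocd. In whole tissue, fewer cells of a type and less RNA per cell cannot be told apart.

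Promoter sequence is shown for 3 members, for Rgs5 and Abcc9 because their levels had the largest positive differences, and for Acta2 because it carries the motifs of both regulators named above. Of the members, 7 matched the RefSeq promoter table (GRCm38.p6), that is, all but Pdgfrb, Tagln and Myh11. Capitals mark CArG-like boxes (CArG boxes with at most 1 letter off inside the A/T core) or TGGGAA, the core bound by the Notch effector RBPJ. A CArG box is CC, then 6 letters of A or T, then GG, and both motifs were searched on both strands. The Rgs5 and Abcc9 windows are the bases before the annotated start that lie in no GENCODE M21 exon, and the Acta2 stretches are limited to 30 bases since an annotated first exon covers that window.
Rgs5, chr1:169655251-169655500, plus strand, no match: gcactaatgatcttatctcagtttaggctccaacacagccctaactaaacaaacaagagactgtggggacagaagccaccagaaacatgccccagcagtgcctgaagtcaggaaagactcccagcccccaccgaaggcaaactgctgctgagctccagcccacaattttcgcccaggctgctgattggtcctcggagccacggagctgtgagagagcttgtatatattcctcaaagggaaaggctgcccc
Abcc9, chr6:142702316-142702524, minus strand, RBPJ core: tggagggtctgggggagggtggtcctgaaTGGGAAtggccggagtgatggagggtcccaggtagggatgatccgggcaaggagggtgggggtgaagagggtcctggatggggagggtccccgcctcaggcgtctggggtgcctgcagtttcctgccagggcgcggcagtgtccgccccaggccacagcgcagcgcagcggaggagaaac
Acta2, chr19:34255438-34255467, minus strand, CArG-like box: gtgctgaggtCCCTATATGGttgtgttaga
Acta2, chr19:34255388-34255417, minus strand, CArG-like box: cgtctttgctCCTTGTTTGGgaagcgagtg
Acta2, chr19:34255383-34255412, minus strand, RBPJ core: ttgctccttgttTGGGAAgcgagtgggagg
The Acta2 matches began 84, 34 and 27 bases before the RefSeq start, and the last 2 overlap. Among 32851 promoter windows of 250 bases, 8.59% held a CArG-like box and 21.6% held the RBPJ core on either strand. Acta2 was the 1 member window with a CArG-like box, and Abcc9, Acta2 and Vtn held the RBPJ core. A match describes letters only.

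Total counts per library ranged from 54642400 to 71803617 in overexpression and from 42614588 to 55859274 in control. Wnt3 itself was at 98.8, 7.45 and 8.71 CPM (counts scaled to library size by TMM) in overexpression libraries 1 to 3, and at 2.70, 1.91 and 1.74 CPM in control libraries 1 to 3. Every overexpression library lay above every control, with most of the excess in library 1, and the log2 fold change was 4.18 ± 1.02 (SE) with an adjusted p of 0.822 in edgeR. Control 2 stood apart by transcript length. In the tenth of genes with the shortest transcripts, its median log2 CPM was 0.86 above the gene's mean over 6 libraries, and in the tenth with the longest it was at -0.61, whereas the other 5 libraries lay between -0.17 and 0.18 in both. Control 2 was the highest or the lowest library for 69.7% of all tested genes and for 8 of the 10 members, the highest for Acta2, Tagln, Des and Vtn and the lowest for Notch3, Rgs5, Abcc9 and Myh11. In the deposited TPM, which divides by transcript length, the ratio of CPM to TPM was 0.53 (log2) higher in control 2 than the median of the other libraries, and overexpression minus control had a median of 0.23 over all genes on the log2(TPM + 0.1) scale against -0.0069 in the count fit. Values below are therefore given in CPM, with results without control 2 and after removal of the length trend where these differ.

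**Figure D1:**
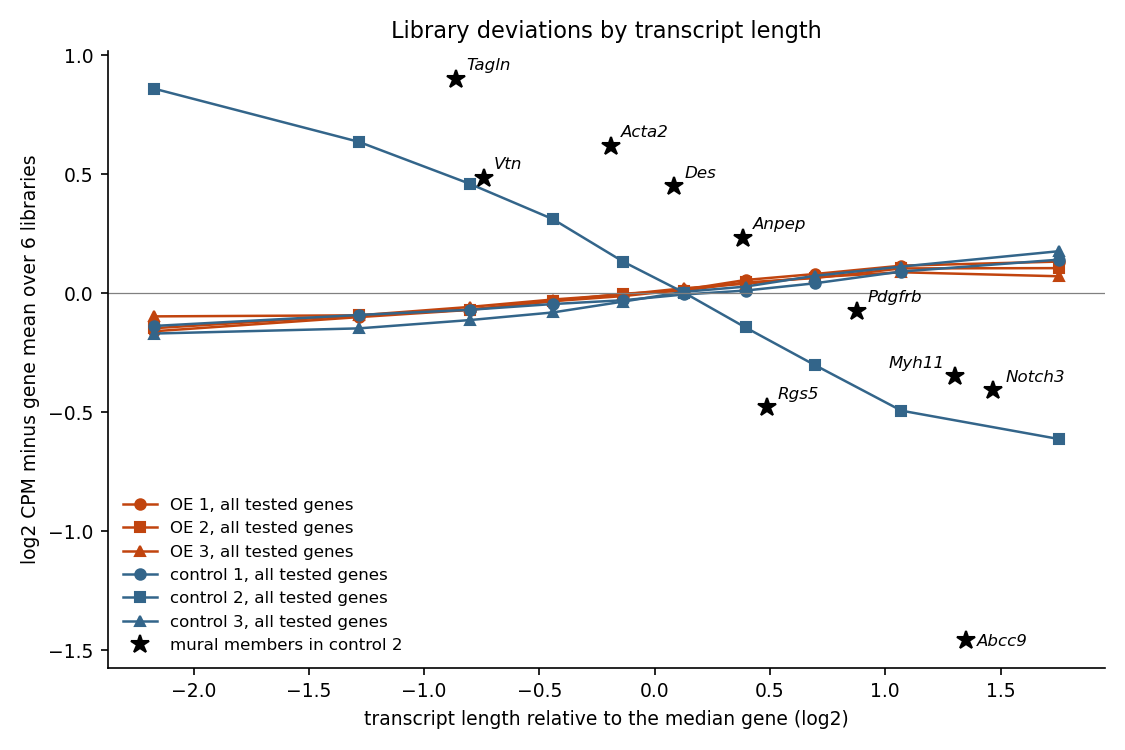
Median deviation of each library (log2 CPM minus the gene's mean over 6 libraries) in 10 groups of tested genes by transcript length relative to the median gene (log2), with overexpression (OE) libraries in red and controls in blue, and the mural members in control 2 as stars. Control 2 runs from 0.86 at the short end to -0.61 at the long end, and Abcc9 lies at -1.46 in that library, below the line.

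None of the mural genes was called as different between overexpression and control at the adjusted threshold of 0.05. All 10 had enough counts to be tested, and edgeR's quasi-likelihood test called 0 of them, against 0% of all 22360 tested genes. The smallest adjusted p in that fit was 0.822, which was also the value for Wnt3. A count of 0 in edgeR therefore cannot tell unchanged members from changed ones. DESeq2 also called 0 of the 10, against 0.182% of its tested genes. Tagln was the 1 member with an unadjusted p under 0.05, in a direction (lower) shared by 2.8% of all tested genes in edgeR and 2.46% in DESeq2. The higher direction held another 1.86% in edgeR and 1.77% in DESeq2, for totals of 4.65% and 4.23%. Nominally 5 members were higher and 5 lower, and their log2 fold changes had a median of -0.02, beside -0.0069 over all tested genes. The groups did not overlap for 2 members, Abcc9 above and Tagln below, against 11.9% of all tested genes (5.89% above, 6.04% below). Counts of 1 and 2 among 10 genes differ little from these shares.

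**Figure D2:**
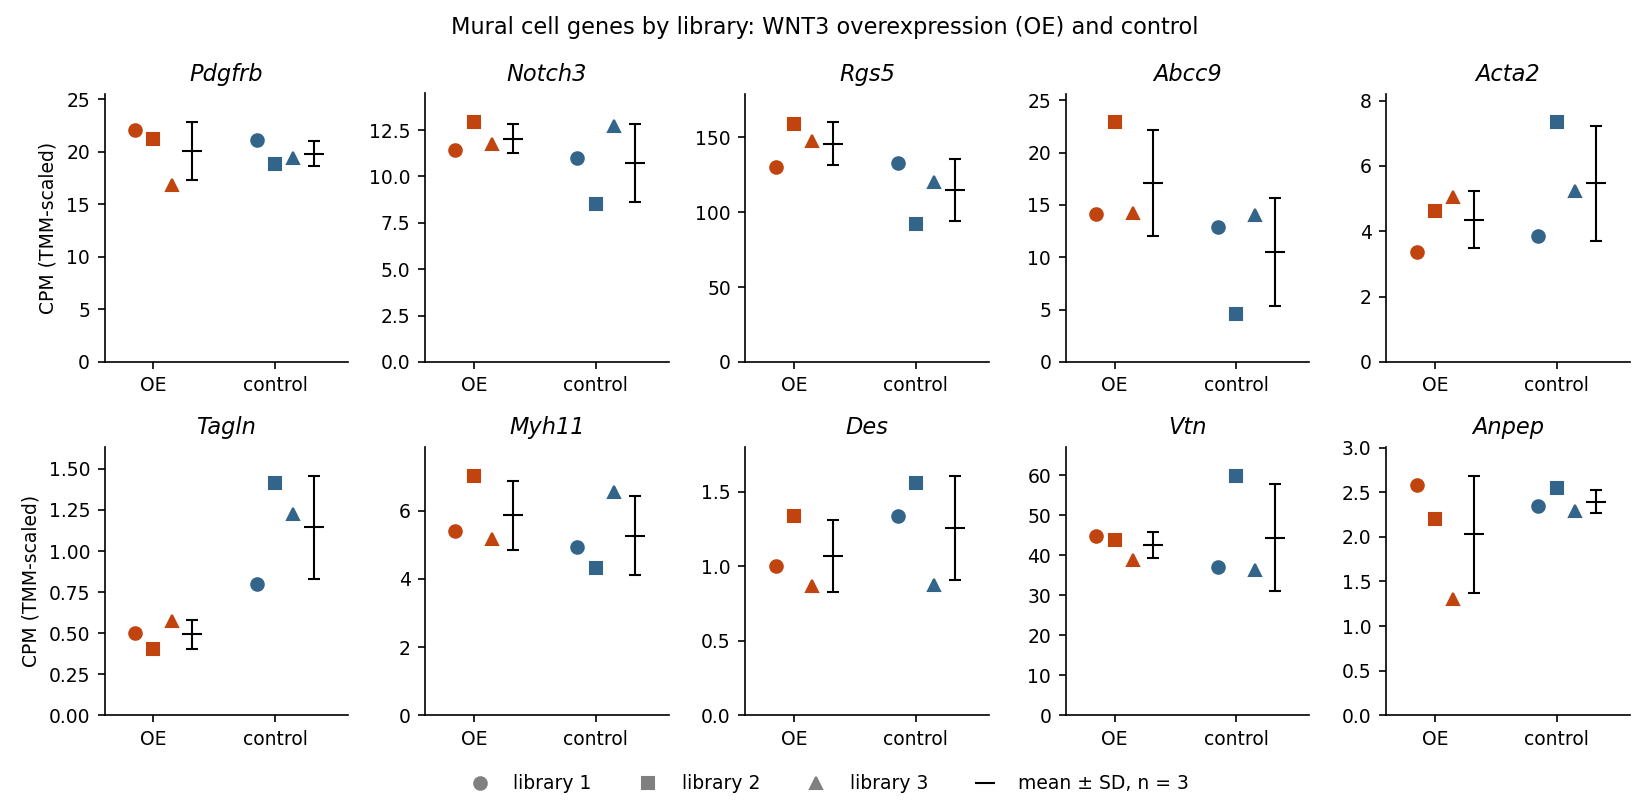
CPM of the 10 mural genes in each library, with overexpression (OE) left of control in each panel, marker shape for the library number, and black bars for the mean ± SD of 3 libraries. Tagln is the gene whose 3 overexpression values lie below all controls, and Abcc9 the gene whose 3 overexpression values lie above them, by little for controls 1 and 3.

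The smooth muscle contractile genes did not move as a block. Tagln, which encodes the actin-binding protein transgelin (SM22), is at chromosome 9, positions 45929619 to 45936058, minus strand. Its level was 0.499, 0.402 and 0.574 CPM in overexpression libraries 1 to 3, and 0.798, 1.41 and 1.23 CPM in control libraries 1 to 3. Every overexpression library lay below every control, and controls 2 and 3 were the highest. The means were 0.492 ± 0.0865 CPM in overexpression and 1.15 ± 0.315 CPM in control (SD, n = 3 each). These levels rest on 28, 25 and 41 reads in overexpression and 34, 77 and 62 reads in control, which limits their precision. The log2 fold change was -1.22 ± 0.40 (SE), with a 95% interval of -2.14 to -0.29, an unadjusted p of 0.0162 and an adjusted p of 0.822 by edgeR with Benjamini-Hochberg adjustment over all tested genes. The direction was down in all 18 alternative settings that gave Tagln a value, from -1.42 to -0.50, with unadjusted p between 0.0115 and 0.0543 and adjusted p between 0.601 and 0.98 over edgeR, DESeq2 and limma. Without control 2 the edgeR value was -1.04 with an unadjusted p of 0.0318, in a fit where 5.87% of all genes had an unadjusted p under 0.05 (2.8% lower, 3.07% higher). With the length trend removed it was -1.03 with an unadjusted p of 0.025, where 6.63% of all genes had one under 0.05 (3.81% lower, 2.82% higher). Tagln shares 108 exonic bases with Pcsk7 and 1241 with the antisense gene Gm48529, both on the opposite strand. The labels name strand-specific libraries but not the strand setting of the counting. Pcsk7, a proprotein convertase gene, was at 25.5, 34.9 and 30.4 CPM in overexpression and 30.5, 28.99 and 29.7 CPM in control, far above Tagln and overlapping between the groups. Whether its reads enter the Tagln counts was not tested.

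Acta2 encodes smooth muscle alpha-actin, the main actin of the contractile fibres, and lies at chromosome 19, positions 34241090 to 34255590, minus strand. It was at 3.37, 4.63 and 5.04 CPM in overexpression and at 3.85, 7.34 and 5.22 CPM in control. Only control 2 stood clear of the range of the other 5 libraries. The log2 fold change was -0.33 ± 0.31 (SE) and -0.06 without control 2. In TPM, the Acta2 level was 3.37, 4.43 and 4.85 in overexpression and 3.601, 4.75 and 4.85 in control, so the groups covered much the same range. The closest other transcripts were those of the actins Acta1 (85.6% identity over 1135 bases), Actg2 and Actb, and reads may be shared among them. Acta1, the skeletal muscle actin, was at 3.96, 3.71 and 3.78 CPM in overexpression and at 5.14, 11.5 and 4.55 CPM in control. Actb, the general cytoplasmic actin, was at 599, 582 and 646 CPM in overexpression and at 566, 999 and 544 CPM in control. Control 2 was the highest library for Acta2, Acta1 and Actb, but not for Actg2, which was at 0.196, 0.0803 and 0 CPM in overexpression and at 0, 0.0734 and 0.0396 CPM in control.

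Myh11, the smooth muscle myosin heavy chain, and Des, the muscle intermediate filament desmin that some pericytes also carry, had overlapping groups. Myh11 (chromosome 16, positions 14194535 to 14291372, minus strand) was at 5.404, 7.04 and 5.17 CPM in overexpression and at 4.93, 4.31 and 6.57 CPM in control. Its log2 fold change was 0.16 ± 0.27 (SE). Leaving out control 2 made it 0.03, leaving out overexpression library 2 made it 0.0062, and removing the length trend made it -0.05. Des (chromosome 1, positions 75360329 to 75368579, plus strand) was at 0.999, 1.33 and 0.87 CPM in overexpression and at 1.34, 1.56 and 0.87 CPM in control. The lowest library of each group had nearly the same Des level, and its log2 fold change was -0.24 ± 0.38 (SE), or -0.0452 without control 2.

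The pericyte channel subunit and signalling regulator had the largest positive values. Abcc9 encodes SUR2, the regulatory subunit of the ATP-sensitive potassium channel of pericytes and smooth muscle, and lies at chromosome 6, positions 142587862 to 142702315, minus strand. Its level was 14.1, 22.9 and 14.2 CPM in overexpression and 12.9, 4.53 and 14.02 CPM in control. Overexpression libraries 1 and 3 lay just above controls 1 and 3, library 2 was far above and control 2 far below. The means were 17.1 ± 5.02 CPM in overexpression and 10.5 ± 5.18 CPM in control (SD, n = 3 each), a log2 fold change of 0.71 ± 0.42 (SE) with an adjusted p of 0.822 in edgeR (0.603 to 0.98 over the alternatives in edgeR, DESeq2 and limma). The value fell to 0.35 without control 2 and to 0.44 without overexpression library 2, and was 0.98 without control 3. Its transcript is 2.55 times the length of the median gene's, a length at which the trend of control 2 lay at -0.56, and Abcc9 itself at -1.46, on the log2 CPM scale. With that trend removed the log2 fold change was 0.59. Kcnj8, the pore subunit that pairs with SUR2, was at 2.66, 5.72 and 4.31 CPM in overexpression and at 2.86, 6.13 and 3.16 CPM in control, with control 2 the highest of all 6. The log2 fold change of Kcnj8 was 0.06 ± 0.40 (SE), or 0.49 without control 2. For Kcnj11, which encodes another pore subunit, the log2 fold change was -0.22 ± 0.17 (SE), and for Abcc8, the SUR1 subunit, it was -0.14 ± 0.19 (SE). Of the 3 listed channel partners none reached an unadjusted p under 0.05 in edgeR or DESeq2.

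Rgs5, a GTPase-activating protein that damps G protein signalling and a marker of pericytes and arteriolar muscle, lies at chromosome 1, positions 169655501 to 169695813, plus strand. It was at 130.5, 159 and 147 CPM in overexpression and at 133, 92.1 and 120.2 CPM in control. Control 1 lay just above the lowest overexpression library, so the groups overlapped. The log2 fold change was 0.34 ± 0.19 (SE), a 95% interval of -0.09 to 0.77 and an adjusted p of 0.822 in edgeR (0.604 to 0.98 over the alternatives in edgeR, DESeq2 and limma). It stayed positive in all 19 alternative settings, from 0.21 without control 2 to 0.57 on the log2(TPM + 0.1) scale, on which the median of all genes was 0.23.

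The receptors were close to level between the groups. Pdgfrb, the PDGF receptor beta that defines mural cells, lies at chromosome 18, positions 61045150 to 61085061, plus strand. It was at 22.1, 21.2 and 16.9 CPM in overexpression and at 21.2, 18.9 and 19.4 CPM in control. The control values sat inside the span of the overexpression values, and Pdgfrb had the narrowest range of the 10 members, 0.38 on the log2 CPM scale. The log2 fold change was 0.02 ± 0.18 (SE), with a 95% interval of -0.40 to 0.43, which allows changes of either sign, and it was -0.02 without control 2 and -0.15 with the length trend removed. Notch3 (chromosome 17, positions 32120820 to 32166852, minus strand) was at 11.4, 12.9 and 11.75 CPM in overexpression and at 11, 8.51 and 12.7 CPM in control. Control 2 was the low library, and the log2 fold change of Notch3 was 0.16 ± 0.22 (SE), 0.02 without control 2 and -0.05 with the length trend removed.

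The secreted and surface members also overlapped. Vtn, which encodes the adhesive matrix protein vitronectin and in brain marks pericytes, lies at chromosome 11, positions 78499091 to 78502324, plus strand. It was at 44.8, 43.9 and 38.7 CPM in overexpression and at 37.1, 59.9 and 36.2 CPM in control. All 3 overexpression libraries were above controls 1 and 3 and below control 2. The log2 fold change was accordingly -0.06 ± 0.23 (SE) with all libraries but 0.21 without control 2, where its unadjusted edgeR p was 0.0935, and 0.13 with the length trend removed. Anpep, aminopeptidase N (CD13), a peptidase on the pericyte surface that is also made by myeloid cells and fibroblasts, lies at chromosome 7, positions 79821803 to 79861059, minus strand. It was at 2.59, 2.20 and 1.30 CPM in overexpression and at 2.35, 2.55 and 2.29 CPM in control. Overexpression library 3 was the low one, and the log2 fold change was -0.24 ± 0.34 (SE), or -0.0064 without that library.

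**Figure D3:**
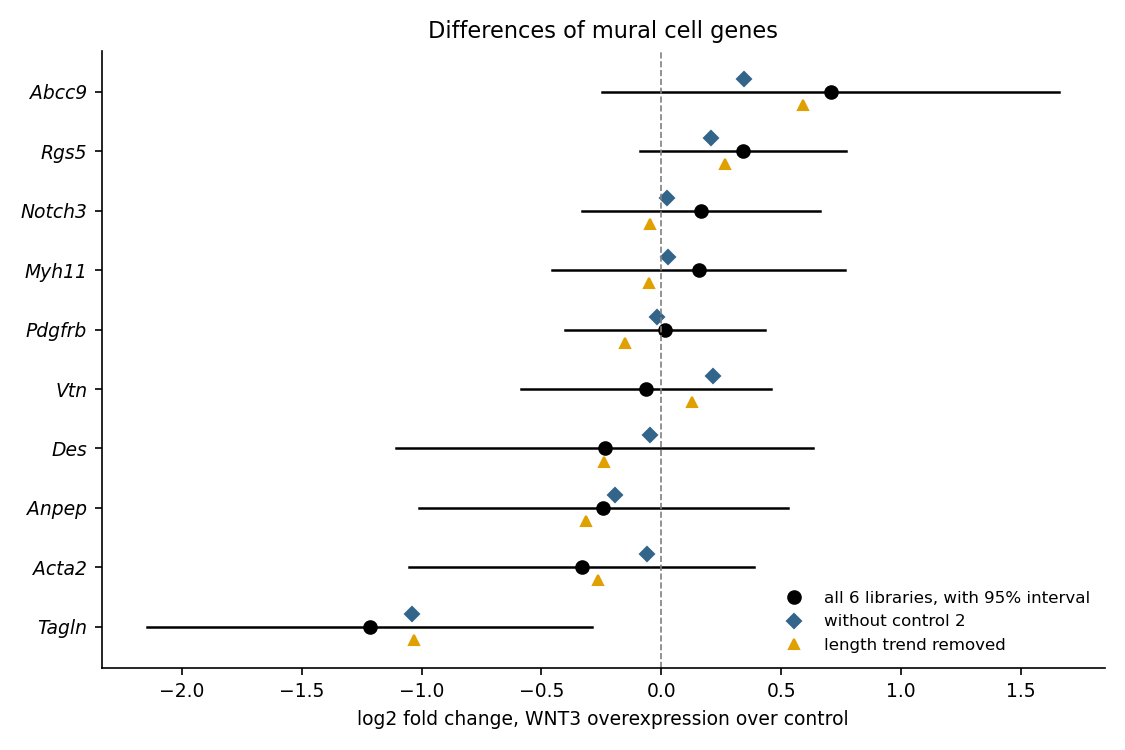
log2 fold change of each mural gene, overexpression over control, from edgeR with all 6 libraries (black, with the 95% interval), without control 2 (blue) and with the length trend removed (yellow). The interval of Tagln, -2.14 to -0.29, is the one that leaves out 0, and Vtn, Notch3, Myh11 and Pdgfrb change sign in at least 1 of the 2 alternatives.

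Per length, the members spanned a wide range of abundance. Over the 6 libraries the mean TPM was 75.0 for Rgs5, 56.5 for Vtn, 8.64 for Pdgfrb, 4.47 for Abcc9, 4.31 for Acta2, 3.31 for Notch3, 1.81 for Myh11, 1.34 for Anpep, 1.13 for Tagln and 0.852 for Des. The pericyte markers Rgs5 and Vtn thus stood far above the arterial contractile genes. Vtn exceeded Pdgfrb in 6 of 6 libraries, Pdgfrb exceeded Abcc9 in 6 of 6 and Notch3 exceeded Myh11 in 6 of 6. Other neighbours in this order were less settled, with Abcc9 above Acta2 and Anpep above Tagln in 3 of 6 libraries, Tagln above Des in 4 of 6, and Rgs5 above Vtn in 5 of 6, the exception being control 2.

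The balance between contractile and pericyte members was compared as the mean log2 CPM of Acta2, Tagln and Myh11 minus that of Pdgfrb, Rgs5, Abcc9 and Vtn, a quantity read only between libraries. It was -4.10, -4.14 and -3.76 in overexpression libraries 1 to 3 and -3.76, -2.87 and -3.23 in control libraries 1 to 3. Overexpression library 3 and control 1 lay at practically the same value, and control 2 was the highest. The mean difference was -0.72 (log2), with SDs of 0.21 in overexpression and 0.44 in control (n = 3 each), and no test was made since the members were chosen with results known. With Acta2 and Myh11 alone on the contractile side the difference was -0.36 and the groups overlapped, and with Pdgfrb alone on the pericyte side it was -0.43 and the groups overlapped too. The size of the difference thus depended on which members stood on either side. Leaving out control 2 gave -0.51.

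**Figure D4:**
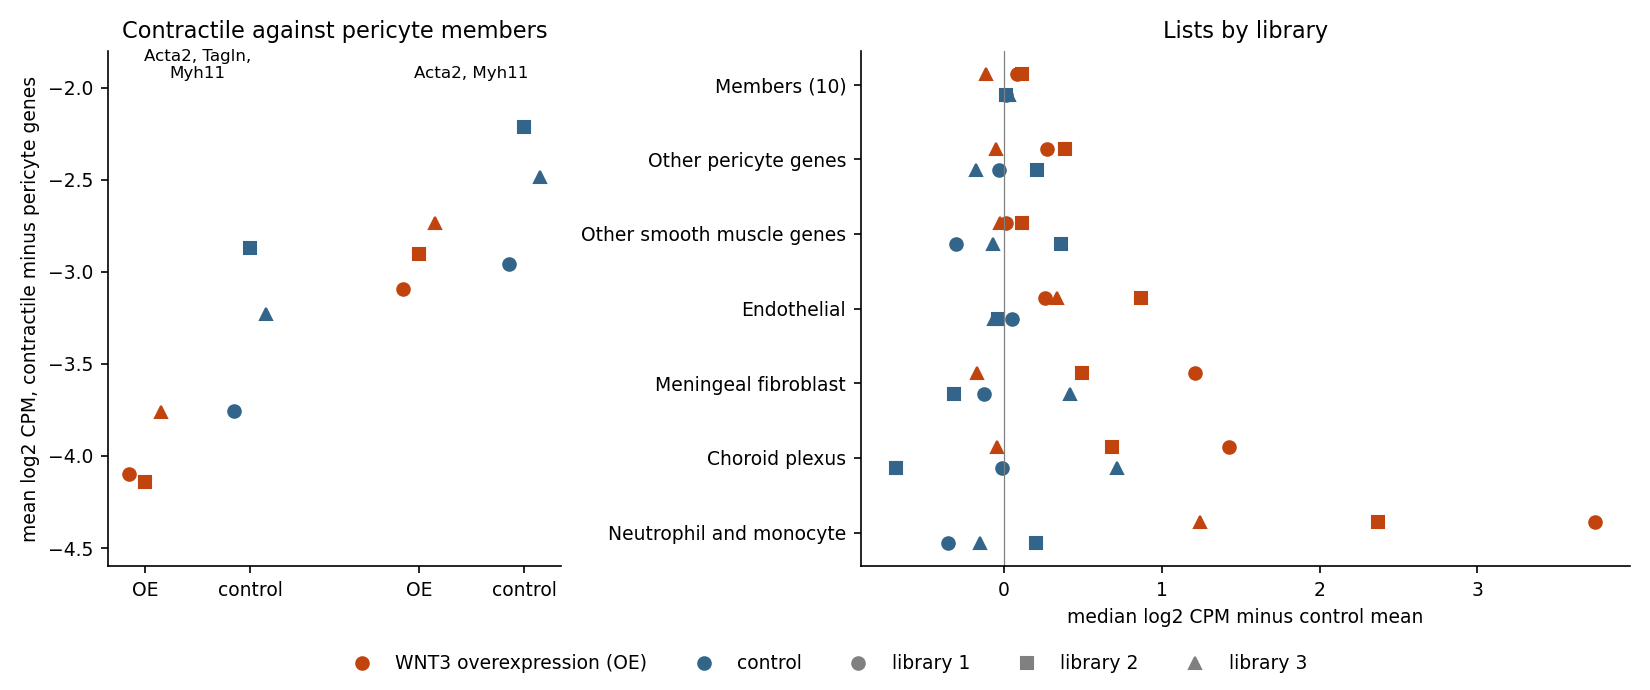
Left, mean log2 CPM of the contractile members minus that of the pericyte members by library, with Tagln (first pair of columns) and without it (second pair). Right, median log2 CPM minus the control mean for the members and 6 other gene lists, with overexpression (OE) in red above control in blue, where the endothelial and the neutrophil and monocyte lists have all OE libraries to the right of the controls and the members do not.

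Other pericyte genes were mostly higher by small amounts, and none passed. All 20 listed were tested, 14 nominally higher and 6 lower. Their log2 fold changes had a median of 0.22, which was 0.40 without control 2 and 0.25 with the length trend removed. In edgeR 2 had an unadjusted p under 0.05, as did 2 in DESeq2, beside the same 4.65% of all tested genes in edgeR and 4.23% in DESeq2. The edgeR count was 1 without control 2, beside 5.87%, and 3 with the length trend removed, beside 6.63%. Lamc3, a laminin chain of the basement membrane, was at 7.13, 6.35 and 5.32 CPM in overexpression and 3.52, 3.23 and 4.69 CPM in control. Atp13a5, an ATPase gene marking brain pericytes, was at 18.8, 21.2 and 15.03 CPM in overexpression and 15.2, 10.7 and 11.6 CPM in control. The Lamc3 groups did not overlap, whereas those of Atp13a5 met at the lower end of overexpression. Mcam, an adhesion protein of mural and endothelial cells, went the other way. It was at 11.7, 13.8 and 13.5 CPM in overexpression and 16.4, 18.7 and 15.4 CPM in control. The Mcam groups were apart, with a log2 fold change of -0.38 ± 0.19 (SE). Among the 20, groups were apart for 2 with overexpression above and 1 with it below, beside 5.89% and 6.04% of all tested genes.

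Other smooth muscle genes split by direction. Of 21 listed, 20 were tested, 9 nominally higher and 11 lower. Their median was -0.09 (log2 fold change), and it became 0.14 without control 2 and 0.05 with the length trend removed. The count of passing genes was 0 in edgeR and in DESeq2. In each tool 3 had an unadjusted p under 0.05, and in edgeR these 3 were Mylk, Itga8 and Myocd, each higher, beside the 4.65% of all tested genes (1.86% higher) given above. Without control 2 the edgeR count was 4, beside 5.87% of all tested genes. With the length trend removed it was 2, beside 6.63%. Mylk, the myosin light chain kinase that triggers contraction, was at 22.3, 29.4 and 22.4 CPM in overexpression and at 12.01, 10.7 and 18.9 CPM in control. Its log2 fold change was 0.83 ± 0.26 (SE), or 0.68 without control 2. Itga8, an integrin of smooth muscle and other mesenchymal cells, was at 19.0, 14.4 and 14.7 CPM in overexpression and at 11.5, 7.23 and 10.3 CPM in control. Both had every overexpression library above every control, as did Myocd at 0.55, 0.76 and 1.15 CPM in overexpression and 0.26, 0.44 and 0.30 CPM in control. In this list 4 of the 20 tested had groups apart with overexpression above and 0 with it below. Over all tested genes these shares were 5.89% and 6.04%. The log2 fold change of Myocd was 1.30 ± 0.48 (SE), or 1.56 without control 2. With the length trend removed it was 0.98, with an unadjusted edgeR p of 0.115. Myocd levels lay in or below the range of Tagln, whose few reads limit precision. Myl9, the light chain that Mylk phosphorylates, did not follow these 3 genes, at 7.78, 9.98 and 6.60 CPM in overexpression and 8.05, 15.8 and 7.79 CPM in control. Both Myl9 and Tagln had their highest level in control 2, but Tagln, unlike Myl9, was also below controls 1 and 3 in every overexpression library. Across both lists, control 2 was the highest or the lowest library for 30 of 40 tested genes, beside the 69.7% for all genes. Myocd, Myl9, Mcam, Kcnj8, Pecam1, Cldn5, Cd177, Pcsk7 and Actb were chosen after their values were seen.

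Signalling partners gave no call. In edgeR 0 of the 5 PDGF ligand and receptor genes, 12 Notch pathway genes, 11 genes of endothelial to mural signalling and 3 tested genes of SRF and its cofactors passed, as in DESeq2. In that order, 1, 1, 1 and 0 had an unadjusted p under 0.05 in edgeR, and 1, 1, 2 and 0 in DESeq2, beside 4.65% and 4.23% of all tested genes. The list of SRF and its cofactors does not hold Myocd, which was counted among the smooth muscle genes. Nrarp, a feedback inhibitor induced by Notch, was at 10.5, 11.8 and 9.47 CPM in overexpression and 13.0, 20.7 and 16.4 CPM in control, and Hey1, a repressor that Notch induces, differed by -0.40 ± 0.19 (log2 fold change ± SE). Both had groups that did not overlap, with lower values in overexpression. The log2 fold change of Nrarp was -0.66 ± 0.23 (SE), or -0.47 without control 2. Nrarp and Hey1 were the only 2 of the 12 Notch pathway genes with groups apart, beside 11.9% of all tested genes. The 12 as a set split evenly by direction, 6 up and 6 down, around a median of -0.04 (log2 fold change). The PDGF ligand gene Pdgfa gave a log2 fold change of -0.61 ± 0.26 (SE), which was -0.29 without control 2, and Pdgfc one of 0.41 ± 0.27 (SE). Tgfbr2, a TGF-beta receptor, was at 21.5, 25.0 and 15.6 CPM in overexpression and 13.5, 11.5 and 15.9 CPM in control. Angpt2, the ligand that loosens mural contact, was at 1.93, 3.07 and 0.59 CPM in overexpression and 0.89, 0.39 and 0.83 CPM in control. Tgfbr2 and Angpt2 thus overlapped between the groups, each through overexpression library 3. For Srf the log2 fold change was -0.34 ± 0.21 (SE). Mrtfb, an SRF cofactor, was at 313, 298 and 279.6 CPM in overexpression and 225, 126 and 254 CPM in control. Its groups were apart, higher in overexpression, as for 5.89% of all tested genes. Its log2 fold change was 0.56 ± 0.25 (SE), with an unadjusted edgeR p of 0.0592. Without control 2 the log2 fold change fell to 0.31, with an unadjusted edgeR p of 0.0138. In that fit 5.87% of all tested genes had an unadjusted p under 0.05.

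Markers of neighbouring cells were summed beside the mural genes, and their part in the mural values was not tested. The 10 members themselves summed to between 235.9 and 275.7 CPM in overexpression and between 201.1 and 228 CPM in control, the lowest sum being that of control 2. The sums of the members thus did not overlap although their medians did. Rgs5 was the largest term and Vtn the next, and each overlapped between the groups by itself. How often sums of other gene sets lie apart was not tested. The 14 endothelial genes summed to between 440 and 640 CPM in overexpression and between 341 and 357 CPM in control, with 11 nominally higher and log2 fold changes with a median of 0.54 (0.54 without control 2). Flt1, a VEGF receptor, was at 83.7, 122.6 and 86.9 CPM in overexpression and 55.5, 47.2 and 59.2 CPM in control. For Abcb1a, the P-glycoprotein pump of the barrier, the log2 fold change was 0.67 ± 0.22 (SE), and for Pecam1, an endothelial adhesion protein, it was 0.55 ± 0.20 (SE). Cldn5, the endothelial tight junction claudin, was at 13.2, 13.3 and 11.3 CPM in overexpression and at 8.89, 26.0 and 7.26 CPM in control, so control 2 alone set its order. Its log2 fold change was -0.15 ± 0.45 (SE), but 0.65 without control 2 and 0.19 with the length trend removed. The 14 meningeal fibroblast genes, of which Islr and Dcn had the smallest p, summed to between 103 and 198 CPM in overexpression and between 92.3 and 177 CPM in control, with 12 nominally higher and a median of 0.60 (log2 fold change). The 8 choroid plexus genes summed to between 5.27 and 12.7 CPM in overexpression and between 4.31 and 8.23 CPM in control, and of the 7 tested all 7 were nominally higher, with a median of 0.50. The 10 neutrophil and monocyte genes, which matter for Anpep, summed to between 23.2 and 56.95 CPM in overexpression and between 12.8 and 19.2 CPM in control, with Mmp8 and Cd177 at 0 in every control. Of the 7 tested, all 7 were nominally higher, with a median of 2.83 (log2 fold change), or 2.38 without control 2. The highest and the lowest Anpep libraries were both overexpression libraries. Overexpression library 3 was the lowest of its group for Anpep and for the list's sum. Every control had a lower sum than that library (23.2 CPM) but a higher Anpep level, at 2.35, 2.55 and 2.29 CPM beside 1.30 CPM. The 8 skeletal muscle genes, which matter for Des, summed to between 6.53 and 8.13 CPM in overexpression and between 6.65 and 16.5 CPM in control. Of the 7 tested, 3 were nominally higher. Their median was -0.70 (log2 fold change), but 0.11 without control 2 and -0.14 with the length trend removed. In edgeR 0 genes of these 5 lists passed. Unadjusted p-values under 0.05 in edgeR numbered 5 endothelial, 0 fibroblast, 1 choroid plexus, 4 neutrophil and monocyte and 1 skeletal muscle, beside 4.65% of all tested genes. Without control 2 these counts were 8, 1, 1, 5 and 1, beside 5.87%. At the adjusted threshold DESeq2 called 0, 0, 1, 2 and 0, beside 0.182% of its tested genes.

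The genes whose libraries ran most like a member were sought among 11521 other named genes with a mean of at least 5 CPM, by the root mean square difference of centred log2 CPM over the 6 libraries. For Pdgfrb they were Vps50, Mtmr7 and Maoa, at 0.03, 0.04 and 0.05, where Pdgfrb's own deviations had a root mean square of 0.13. For Abcc9, the member with the widest range (2.33 on the log2 CPM scale), they were Lyst, Tfcp2l1 and Unkl, at 0.12, 0.13 and 0.14 beside 0.70 for Abcc9 itself. Lyst was at 109, 152 and 107 CPM in overexpression and 86.3, 38.6 and 98.3 CPM in control. Like Abcc9, Lyst, Tfcp2l1 and Unkl were highest in overexpression library 2 and lowest in control 2, which follows from their choice by likeness. Over all tested genes, overexpression library 2 was the highest for 15.5% and control 2 the lowest for 34.0%.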

How the data were processed

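RNA from 6 samples was made into strand-specific TruSeq libraries, per the labels' protocols. Per the submitters' processing notes, mm10, STAR 2.5.3a, FastQC 0.11.5, DESeq 1.16.1 and Cuffnorm were used, without stated roles, and the labels name no counting program, annotation or strand setting. A deposited table gives raw counts for each gene, and another gives TPM as scaled by the authors. Columns were matched to samples by the library name in the labels.

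Genes were kept by filterByExpr (minimum count 10), and overexpression was compared with control by edgeR 4.0.16 (quasi-likelihood, TMM, group only, Benjamini-Hochberg at 0.05) in R 4.3.3, after trials on simulated data. SE was taken as the absolute log2 fold change over the root of the F statistic. Alternatives used DESeq2 1.42.0, limma 3.58.1, other scalings and filters, the replicate number as a block and omission of each library. Removal of a lowess trend (span 0.3) on transcript length, taken from the ratio of counts to TPM, and the contractile balance without Tagln were added after the data were seen. Coordinates are from GENCODE M21 (mm10), and near copies came from blastn. The rule for naming took all members, Wnt3 and the genes most like Pdgfrb and the most variable member. From each list in which none passed, it took the 2 genes with the smallest p. Of these, F5, Clic6, S100a8, Actn3, Cux2 and Adora2a were not described. Some genes outside the rule were, such as Slc17a7, Actg2 and those chosen after their values were seen. Members and lists were chosen with earlier results of these data known. A marker listed for cortical neurons is not reported here and was left out of that sum.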

Additional observations from a re-analysis of the deposited data

How the results depend on the processing

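Across the 19 alternative settings, edgeR and limma called 0 of all genes in each, with 64 genes called by DESeq2, none of them a mural member, and 0 at an adjusted p of 0.1 in edgeR. Mural members called stayed at 0 in every setting. Deviations from the group mean correlated at 0.059, -0.02 and -0.01 between same-numbered samples. With 3 libraries per group these values cannot decide whether the numbers mark pairs, and the labels name no pairing. With the replicate block, edgeR called 0 genes and 0 members (751 genes at an unadjusted p under 0.05). Tagln had no value under the minimum of 1 CPM. The contractile minus pericyte difference was -0.71 on log2(TPM + 0.1), -0.43 against Pdgfrb alone, -0.36 without Tagln, -0.64 with the length trend removed and -0.95 to -0.51 without single libraries. Of 189 member values under alternatives, 14 had the opposite sign, all of uncalled genes, and the cause was not tested. With the length trend removed these were Pdgfrb (-0.15), Notch3 (-0.0458), Myh11 (-0.0501) and Vtn (0.13). Without single libraries Pdgfrb ranged from -0.0522 to 0.12 and Vtn from -0.19 to 0.21. On log2(TPM + 1), with and without the filter, Vtn was at 0.20 and Des at 0.0024, and on log2(TPM + 0.1) they were at 0.20 and 0.0033. Depth limits Tagln and Des most, at 25 to 85 reads per library.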
